A study of Mus musculus with 8 samples.

Results

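Unstimulated bone marrow neutrophils of Padi4 KO mice were compared with those of WT mice by RNA sequencing. The comparison used the 4 libraries that the sample labels call unstimulated, 2 of WT and 2 of Padi4 KO, of 8 libraries in all, and took every gene of the count table. The other 4 libraries, 2 of each genotype, were from neutrophils given R848, a synthetic agonist of TLR7, at 1 µg/ml for 6 h. Both genotypes were on the C57BL/6 background and 8 weeks old, female per the study's methods, and the KO allele lacks exon 1 of Padi4. Neutrophils were isolated magnetically from bone marrow. The labels give a time of 0 h for the unstimulated libraries, whereas the protocol describes 6 h of culture with or without R848, and which of these holds could not be told from the counts. The labels do not say that replicates came from separate mice, and the study's methods state only that samples were run in duplicate, so p-values measure the spread between these libraries, which may be technical.

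Padi4 encodes peptidylarginine deiminase 4, an enzyme that turns arginine residues of proteins, histones among them, into citrulline. In neutrophils it is known for citrullinating histone H3 while chromatin is released as extracellular traps. Neutrophils arise in the bone marrow from promyelocytes, which make the azurophil granule proteins, through myelocytes and metamyelocytes, which make the specific and gelatinase granule proteins, to mature cells that carry the receptors for chemotaxis. Erythroblasts, monocytes and stromal cells lie beside them in the marrow.

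In GRCm38, the build also named mm10, Padi4 occupies positions 140745865 to 140774236 of chromosome 4, is read from the minus strand and has 16 exons. The coding part of exon 1, the exon missing from the KO allele, spans 92 bases at chr4:140774089-140774180 and is shown because its loss defines the genotype. The capitals mark the start codon.
Padi4 exon 1, coding part: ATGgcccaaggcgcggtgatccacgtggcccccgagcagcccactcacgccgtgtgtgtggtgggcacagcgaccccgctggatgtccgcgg

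The Padi4 gene had 590 and 527 counts in the WT libraries and 40 and 54 counts in the Padi4 KO libraries. Scaled to CPM, counts brought to a common library total, with TMM factors, which equalise the bulk of genes between libraries, these were 912 and 910 CPM in WT and 45.2 and 39.2 CPM in KO. Both KO libraries lay far below both WT libraries, as the genotype labels require. The log2 fold change was -4.45 (SE 0.13, n = 2 per group, Benjamini-Hochberg adjusted p = 1.21e-253 by edgeR's quasi-likelihood test), a level 21.8-fold lower in KO. The counts cover the whole gene, and whether the reads left in KO lay on the remaining exons was not tested.

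Of the other PAD genes, Padi1 and Padi6 were listed at 0 in the 4 libraries. Padi3 had 1 and 3 counts in WT against 2 and 5 in KO, and did not pass the test. Padi2, whose product deiminates arginine in many tissues and lies in the same gene cluster, had 4 and 2 counts in WT against 16 and 22 in KO. Its log2 fold change was 1.75 (SE 0.58, edgeR adjusted p = 0.0182), but the call was lost with DESeq2 and without WT replicate 2.

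The WT libraries held 640958 and 562446 counts on genes and the KO libraries 716440 and 1102363, so KO was sequenced 1.51-fold deeper on average. A floor of 3 counts corresponded to between 2.72 and 5.33 CPM of the library total, and it covers counting error only. At an adjusted p below 0.1, 2933 of 12254 genes tested (23.9%) differed between Padi4 KO and WT, 1170 higher (9.55%) and 1763 lower (14.4%) in KO. Of these, 791 were more than 2-fold higher (6.46%) and 245 more than 2-fold lower (2%). With this scaling, falls were thus more numerous than rises but fewer of them were large, and 585 of the calls were within 0.5 of 0 on the log2 scale. With DESeq2, 475 genes were higher and 586 lower, and without WT replicate 1 the edgeR counts were 778 and 1166.

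The split between directions depended on the scaling. Lower genes made up 60.1% of the calls with TMM factors over the 8 libraries, 53.4% with relative log expression (RLE) factors, 42.7% with TMM factors from the 4 unstimulated libraries alone, and 22.8% with library size alone. Among 7088 genes with a mean of at least 10 counts, the median log2 fold change was -0.15 with the first of these scalings, -0.10, 0.00 and 0.13 with the others in the same order. The direction of a change of about that size in a single gene thus turns on the scaling. Under all of TMM, RLE, 4 libraries alone, library size alone and DESeq2, 475 of the 12254 genes tested were higher and 428 lower in KO. Membership of these sets is given below as calls in all 5 settings. Library size alone called 1901 genes higher and 561 lower, so list counts under it are to be read beside these.

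**Figure D1:**
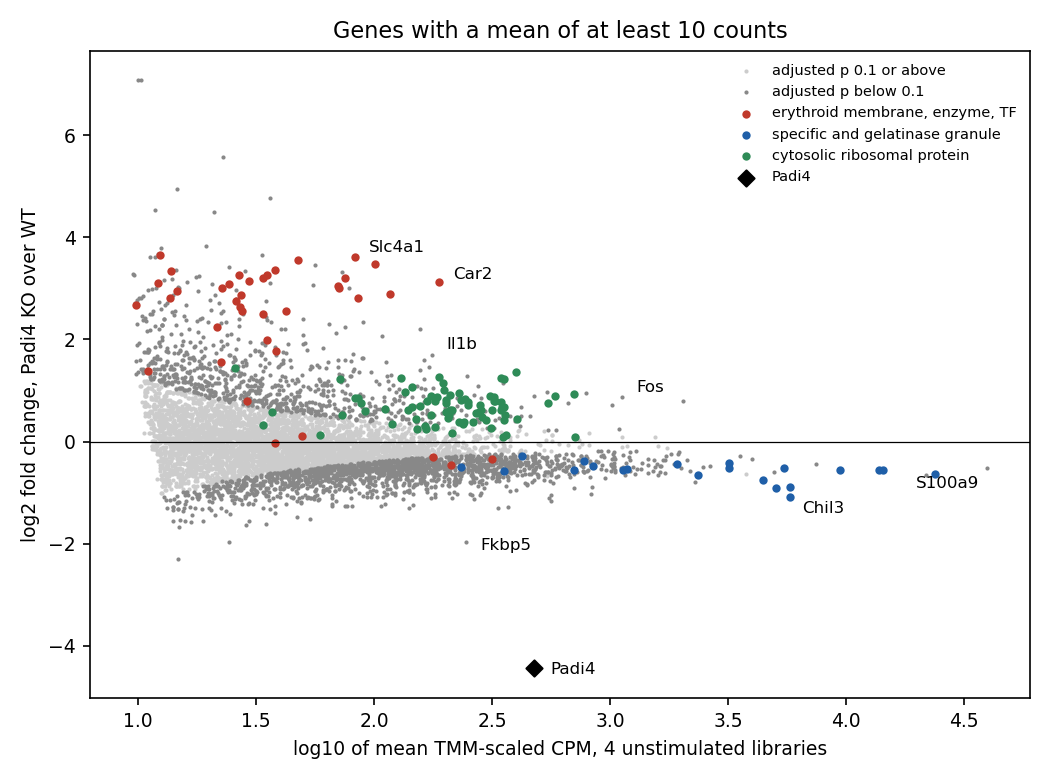
Log2 fold change of Padi4 KO over WT (vertical) against the log10 of the mean TMM-scaled CPM of the 4 unstimulated libraries (horizontal), for the 7088 genes with a mean of at least 10 counts. Dark grey points have an adjusted p below 0.1; the granule genes (blue) sit at high levels just below 0, the erythroid genes (red) at low levels mostly between 2 and 4, the ribosomal protein genes (green) mostly between 0 and 1.5, and Padi4 (diamond) stands alone at -4.45.

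Genes of neutrophil granules were lower in Padi4 KO. All 21 tested members of the specific and gelatinase granule list fell, against 14.4% of all genes, and 15 did so in all 5 settings. The median log2 fold change was -0.56, beside -0.03 for all genes tested. Chil3, a chitinase-like secreted lectin also called Ym1, had 8273 and 7524 CPM in WT and 3728 and 3681 CPM in KO. The log2 fold change was -1.09 (SE 0.06, edgeR adjusted p = 6.5e-63), and it was the only member more than 2-fold lower.

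The other members fell by less. Mmp8, the neutrophil collagenase, had 6535 and 6701 CPM in WT and 3430 and 3606 CPM in KO (log2 fold change -0.91, SE 0.06, edgeR adjusted p = 8.7e-42). Retnlg, a resistin-like secreted protein of granulocytes, had 7696 and 7362 CPM in WT and 4091 and 4024 CPM in KO, a log2 fold change of -0.89. In each of these genes both KO libraries lay below both WT libraries, by more than the libraries of a group differed. Groups that do not overlap were common, however, in 55.4% of all genes tested. The log2 fold changes of Camp, the cathelicidin antimicrobial peptide, Ngp, a granule protein of the same fold, and Lcn2, the siderophore-binding lipocalin, were -0.75, -0.64 and -0.57. Summed over the list, granule transcripts took 130307 and 128309 CPM of the library total in WT and 100610 and 101684 CPM in KO, a ratio of 0.782.

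Promoters of the granule genes were searched for the letters TTGCNNAA, the core of the palindrome bound by C/EBP factors, on both strands of the 250 bases before the RefSeq start in GRCm38.p6. Of the 21 genes, 18 had a promoter in the table, and 8 of these (44.4%) held the letters, against 748 of 9818 promoters of all genes tested (7.62%). All tested members of the list had fallen, so this share is that of the list itself and not of a choice by the calls. C/EBP factors are known to drive granule genes during granulopoiesis, but a match of letters is not a binding site. The promoters of the genes with the smallest p that held the letters are shown, with the match in capitals, in Retnlg on the opposite strand.
Mmp8 promoter, plus strand, chr9:7558179-7558428: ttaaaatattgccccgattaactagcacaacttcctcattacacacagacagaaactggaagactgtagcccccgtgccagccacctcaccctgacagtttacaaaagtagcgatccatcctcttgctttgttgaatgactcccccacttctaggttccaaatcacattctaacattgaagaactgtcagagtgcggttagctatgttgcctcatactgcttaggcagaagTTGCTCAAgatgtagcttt
Retnlg promoter, plus strand, chr16:48872358-48872607: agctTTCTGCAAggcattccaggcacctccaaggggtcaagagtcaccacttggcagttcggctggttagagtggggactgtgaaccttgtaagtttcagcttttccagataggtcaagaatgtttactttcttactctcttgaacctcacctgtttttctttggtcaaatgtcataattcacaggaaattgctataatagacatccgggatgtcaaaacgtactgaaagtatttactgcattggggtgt
Over all genes called lower, the share with the letters was 8.40%, and over those called higher 8.25%, both near the 7.62% of all genes tested.

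Azurophil granule genes, made earlier in the lineage, also leaned to lower levels. Of 14 tested, 6 fell (42.9%, against 14.4% of all genes) and 1 rose (7.14%, against 9.55%), with a median log2 fold change of -0.53, and 4 of the falls held in all 5 settings. Mpo, the myeloperoxidase, had 598 and 546 CPM in WT and 314 and 321 CPM in KO (log2 fold change -0.85, SE 0.10, edgeR adjusted p = 8.44e-16). Elane, the neutrophil elastase, fell by 0.84 on the log2 scale from 288 and 280 CPM to 169 and 151 CPM. Plac8, a cysteine-rich protein of early myeloid cells, was the member that rose, from 184 and 164 CPM to 234 and 246 CPM (log2 fold change 0.47).

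Of 38 genes of mature neutrophils, 26 fell (68.4%, against 14.4% of all genes) and 4 rose (10.5%, against 9.55%) in KO, with a median of -0.42. In all 5 settings 12 fell and 2 rose. With library size alone 12 fell and 7 rose, where 561 of all 12254 genes fell and 1901 rose. S100a8 and S100a9, the calcium-binding pair that forms calprotectin, fell. S100a8 had 29684 and 23554 CPM in WT and 17572 and 16422 CPM in KO (log2 fold change -0.65, SE 0.06, edgeR adjusted p = 5.68e-25), and S100a9 changed by -0.51 from 46664 and 46469 CPM. Cxcr4, the receptor that retains neutrophils in the marrow, went from 518 and 532 CPM to 278 and 264 CPM, and Il1r2, the decoy receptor for interleukin 1, from 370 and 383 CPM to 182 and 184 CPM. Their log2 fold changes were -0.96 and -1.04. The members that rose included Ccr2, a chemokine receptor more typical of monocytes, with 1.56, and Tlr2, a receptor for bacterial lipopeptides, with 0.79.

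**Figure D2:**
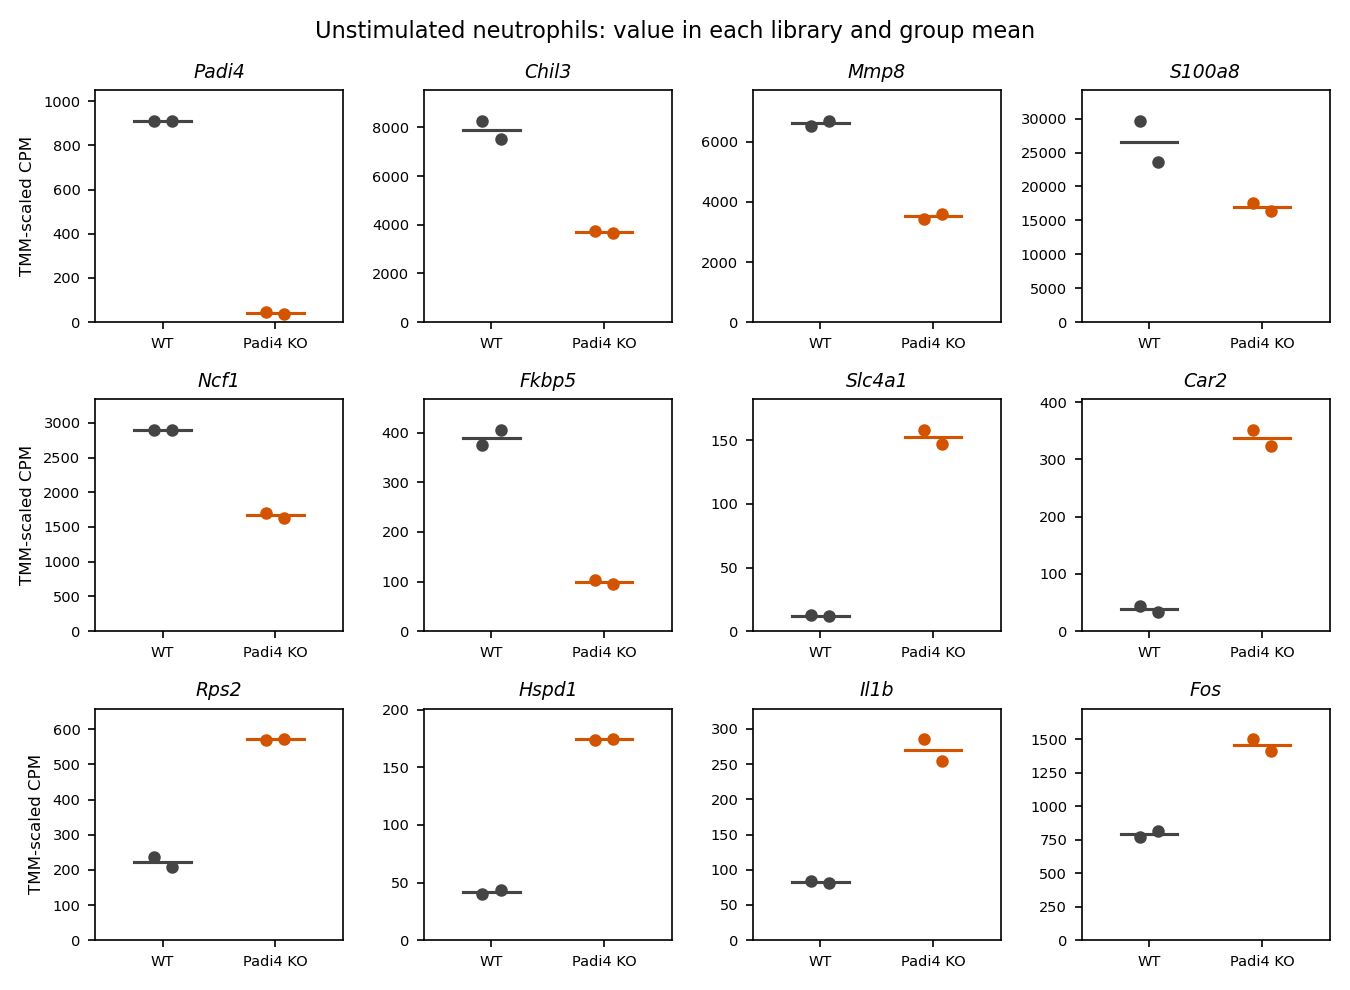
TMM-scaled CPM (vertical, from 0) of 12 genes in each unstimulated library, WT in grey and Padi4 KO in orange, with points for the 2 libraries and a line at the group mean. In each of these genes the libraries of the genotypes do not overlap, as in 55.4% of all genes tested; Padi4, Chil3, Mmp8, S100a8, Ncf1 and Fkbp5 are lower in KO and Slc4a1, Car2, Rps2, Hspd1, Il1b and Fos higher.

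The oxidase and motility genes were lower as well. Of 9 subunits and regulators of the phagocyte NADPH oxidase, 8 fell (88.9%, against 14.4% of all genes). Ncf1, the organising p47phox subunit, had 2900 and 2897 CPM in WT and 1703 and 1630 CPM in KO (log2 fold change -0.80, SE 0.07, edgeR adjusted p = 4.42e-29), and the membrane subunits Cyba and Cybb changed by -0.59 and -0.43. Only 2 of these 8 calls held in all 5 settings, and Cybb passed no longer with library size alone.

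Of 74 chemotaxis, adhesion and actin genes, 58 fell (78.4%, against 14.4% of all genes) and 2 rose (2.70%, against 9.55%), 17 and 1 of them in all 5 settings. Falls were small, with a median of -0.43 and a lowest value of -0.96, that of Cxcr4. Itgb2 and Itgam, which form the adhesion receptor Mac-1, changed by -0.53 and -0.48. Tmsb4x, which binds actin monomers, fell from 6642 and 5288 CPM to 4118 and 3829 CPM, and Myh9, non-muscle myosin, and Coro1a, an actin regulator of leukocytes, changed by -0.53 and -0.50. Tmsb10, a relative of Tmsb4x, was the member that rose most firmly, with 95.9 and 104 CPM in WT and 161 and 172 CPM in KO.

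Among 20 transcription factors of granulopoiesis, 11 fell (55%, against 14.4% of all genes) and 3 rose (15%, against 9.55%). With library size alone 4 fell and 3 rose, where 561 of all 12254 genes fell and 1901 rose, and 4 falls held in all 5 settings. Cebpe, the C/EBP factor required for specific granules, had 243 and 293 CPM in WT and 153 and 140 CPM in KO (log2 fold change -0.88, SE 0.13, edgeR adjusted p = 4.38e-10). Gfi1, a repressor needed for the neutrophil lineage, had 25 and 33 counts in WT against 18 and 25 in KO, a log2 fold change of -1.31 (SE 0.30). Klf13, a zinc finger factor, changed by -0.96. Irf8, which favours monocytes, and Cebpb, used in emergency granulopoiesis, had log2 fold changes of 0.84 and 0.30. The Irf8 value was 1.499 without WT replicate 1, and its call was lost without WT replicate 2, that of Cebpb without WT replicate 1.

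Erythroid genes were the group furthest above the rest in Padi4 KO. Of 47 membrane, enzyme and transcription factor genes of red cells tested, 36 rose (76.6%, against 9.55% of all genes) and 3 fell (6.38%, against 14.4%), with a median log2 fold change of 2.87. Of the rises, 33 held in all 5 settings. Slc4a1, the band 3 anion exchanger, had 8 and 7 counts in WT against 140 and 203 in KO, that is 12.4 and 12.1 CPM against 158 and 147 CPM. Its log2 fold change was 3.62 (SE 0.26, edgeR adjusted p = 1.86e-40), a 12.3-fold difference.

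Other genes of the list showed similar rises. Car2, carbonic anhydrase 2, had 43.3 and 32.8 CPM in WT and 352 and 324 CPM in KO (log2 fold change 3.13, SE 0.17, edgeR adjusted p = 5.72e-70), the smallest p of any gene that rose. Aqp1, the water channel, had 10.8 and 22.4 CPM in WT and 189 and 180 CPM in KO, and Tfrc, the transferrin receptor, had 37.1 and 17.3 CPM in WT and 217 and 197 CPM in KO. The WT libraries differed widely from each other in Aqp1 and Tfrc but stayed far below KO, and the log2 fold change was 4.07 for Aqp1 without WT replicate 2 and 3.56 for Tfrc without WT replicate 1. Sptb and Ank1, the spectrin and ankyrin of the red cell skeleton, had log2 fold changes of 3.21 and 3.56, and Prdx2, a peroxiredoxin, 2.81. Minpp1, a phosphatase of inositol polyphosphates that is on none of the lists, was among the largest rises with 3.47, or 2.85 without WT replicate 1 and 4.40 without WT replicate 2.

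The defining regulators were named after their values were seen. Gata1, the master transcription factor of erythroid cells, had 4 and 4 counts in WT against 40 and 62 in KO, and Klf1, the erythroid Krüppel-like factor, had 4 and 4 in WT against 56 and 88 in KO. Their log2 fold changes were 2.76 and 3.26. By contrast the adult globin genes Hba-a1, Hba-a2, Hbb-bs and Hbb-bt were listed at 0 in all libraries, and Alas2, the erythroid enzyme of the first step of heme synthesis, had 3 and 3 counts in WT against 7 and 14 in KO and did not pass the test. The line of the count table for reads aligned to several places was at 0 as well, so near-identical genes cannot be judged.

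Heme synthesis moved with the erythroid list: 9 of 15 genes rose (60%, against 9.55% of all genes), 1 fell (6.67%, against 14.4%), and the median was 0.90. Cpox, coproporphyrinogen oxidase, had 15 and 1 counts in WT against 122 and 176 in KO (log2 fold change 3.32, SE 0.27, edgeR adjusted p = 5.59e-32). The WT libraries stood far apart, and the fitted value was 6.14 without WT replicate 1 and 2.501 without WT replicate 2. Fech, which inserts iron, rose from 12.4 and 15.5 CPM to 58.8 and 53.7 CPM. Ppox, the enzyme between Cpox and Fech in the pathway, was the member that fell, by 0.51 on the log2 scale, and its call was lost in several settings. Of 25 genes of iron storage and transport, which share Tfrc with the erythroid list and Lcn2 with the granule list, 9 rose (36%, against 9.55% of all genes) and 7 fell (28%, against 14.4%). Their median of -0.09 turned to 0.20 with library size alone, and that of all genes tested from -0.03 to 0.22. In bulk RNA, more cells of a type and more RNA per cell cannot be told apart. The study's methods give a high purity of CD11b+ Ly6G+ neutrophils for the magnetic isolation, which the counts cannot check. Summed over the erythroid list, transcripts took 1262 and 1262 CPM of the library total in WT and 4122 and 4106 CPM in KO, a ratio of 3.26, with 6 of the list's genes at 0 in the 4 libraries. The part of erythroid RNA in the other differences was not tested. TMM factors computed without the erythroid lists, which changes the scaling only, gave 1174 genes higher and 1752 lower.

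Promoters of the 44 erythroid and heme genes that rose were searched in the same way for AGATAA, a motif of GATA factors, and CCNCACCC, a motif of Krüppel-like factors, which do not overlap each other. Of 32 with a promoter in the table, 6 (18.8%) held AGATAA and 8 (25%) CCNCACCC, against 5.94% and 17.9% of all genes tested. The granule genes that fell held these letters at similar shares, 4 of 18 (22.2%) for AGATAA and 6 of 18 (33.3%) for CCNCACCC. The promoters with AGATAA and the smallest p were those of Tal1, a partner of Gata1, and Rhd, the Rh blood group protein. They are shown with the match in capitals, in Tal1 on the opposite strand.
Tal1 promoter, plus strand, chr4:115056176-115056425: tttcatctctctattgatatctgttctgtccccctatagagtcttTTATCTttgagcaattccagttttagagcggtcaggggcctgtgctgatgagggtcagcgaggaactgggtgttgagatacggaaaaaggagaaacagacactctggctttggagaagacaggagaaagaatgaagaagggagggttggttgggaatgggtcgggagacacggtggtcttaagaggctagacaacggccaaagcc
Rhd promoter, plus strand, chr4:134864286-134864535: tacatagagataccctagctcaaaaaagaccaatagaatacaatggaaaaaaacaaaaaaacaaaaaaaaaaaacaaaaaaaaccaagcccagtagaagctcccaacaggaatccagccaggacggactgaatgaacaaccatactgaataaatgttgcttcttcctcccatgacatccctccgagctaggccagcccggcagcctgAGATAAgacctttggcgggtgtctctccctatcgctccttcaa

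Markers of other marrow cells moved less evenly. Of 42 monocyte and macrophage genes, 15 rose (35.7%, against 9.55% of all genes) and 5 fell (11.9%, below the 14.4% of all genes). The list took 8010 and 8029 CPM of the library total in WT and 9480 and 9503 CPM in KO. Divided by the TMM factors, the sums turned to 7936 and 7795 CPM in WT and 7677 and 7599 CPM in KO, lower in KO, so the sum as a whole has no direction that holds under both scalings. F13a1, coagulation factor XIII, had 165 and 188 CPM in WT and 370 and 375 CPM in KO (log2 fold change 1.08, SE 0.12, edgeR adjusted p = 3.95e-17), and Fn1, fibronectin, and Ms4a6c, a membrane protein of monocytes, rose by 0.76 and 1.38 on the log2 scale. Ccl6, a chemokine made by neutrophils as well, went the other way, from 1079 and 1145 CPM to 543 and 551 CPM, with a log2 fold change of -1.02.

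Of 23 stromal and endothelial genes tested, 6 rose (26.1%, against 9.55% of all genes) and 17 were not called, and the list took 290 and 261 CPM of the library total in WT and 695 and 870 CPM in KO. Col1a2 and Col1a1, the chains of type I collagen, had log2 fold changes of 1.47 and 1.05, and Sparc, a matrix glycoprotein, 1.74. Of 20 megakaryocyte and platelet genes, 3 rose (15%) and 1 fell (5%), against 9.55% and 14.4% of all genes. Pf4, platelet factor 4, had 8 and 12 counts in WT against 52 and 53 in KO.

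Counts for the lymphoid, dendritic, eosinophil and stem cell lists were small, at shares that were near or below those of all genes, 9.55% higher and 14.4% lower, or a little above them. Of 20 B cell and plasma cell genes 2 rose and 2 fell (10% each), of 9 T and NK cell genes 1 fell (11.1%), and of 19 dendritic cell and MHC class II genes 1 rose (5.26%). Of 17 stem and progenitor genes 3 fell (17.6%), and of 16 eosinophil, basophil and mast cell genes 2 fell (12.5%). Hdc, the histamine-forming enzyme, was one of the latter with a log2 fold change of -0.27, which turned to 0.02 with library size alone. The dendritic cell and MHC class II list took 243 and 217 CPM of the library total in WT and 278 and 296 CPM in KO, and the T and NK cell list 18.7 and 21.3 CPM in WT and 8.37 and 9.07 CPM in KO. Divided by the TMM factors, the dendritic sums overlapped between the genotypes, while the erythroid sums (1250 and 1226 CPM in WT, 3338 and 3283 CPM in KO) and the stromal sums (288 and 254 CPM in WT, 563 and 696 CPM in KO) were higher in both KO libraries than in both WT libraries under both scalings. The part of these cells' RNA in the other results was not tested. The list of sex-linked genes held no detected Y gene in any library.

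**Figure D3:**
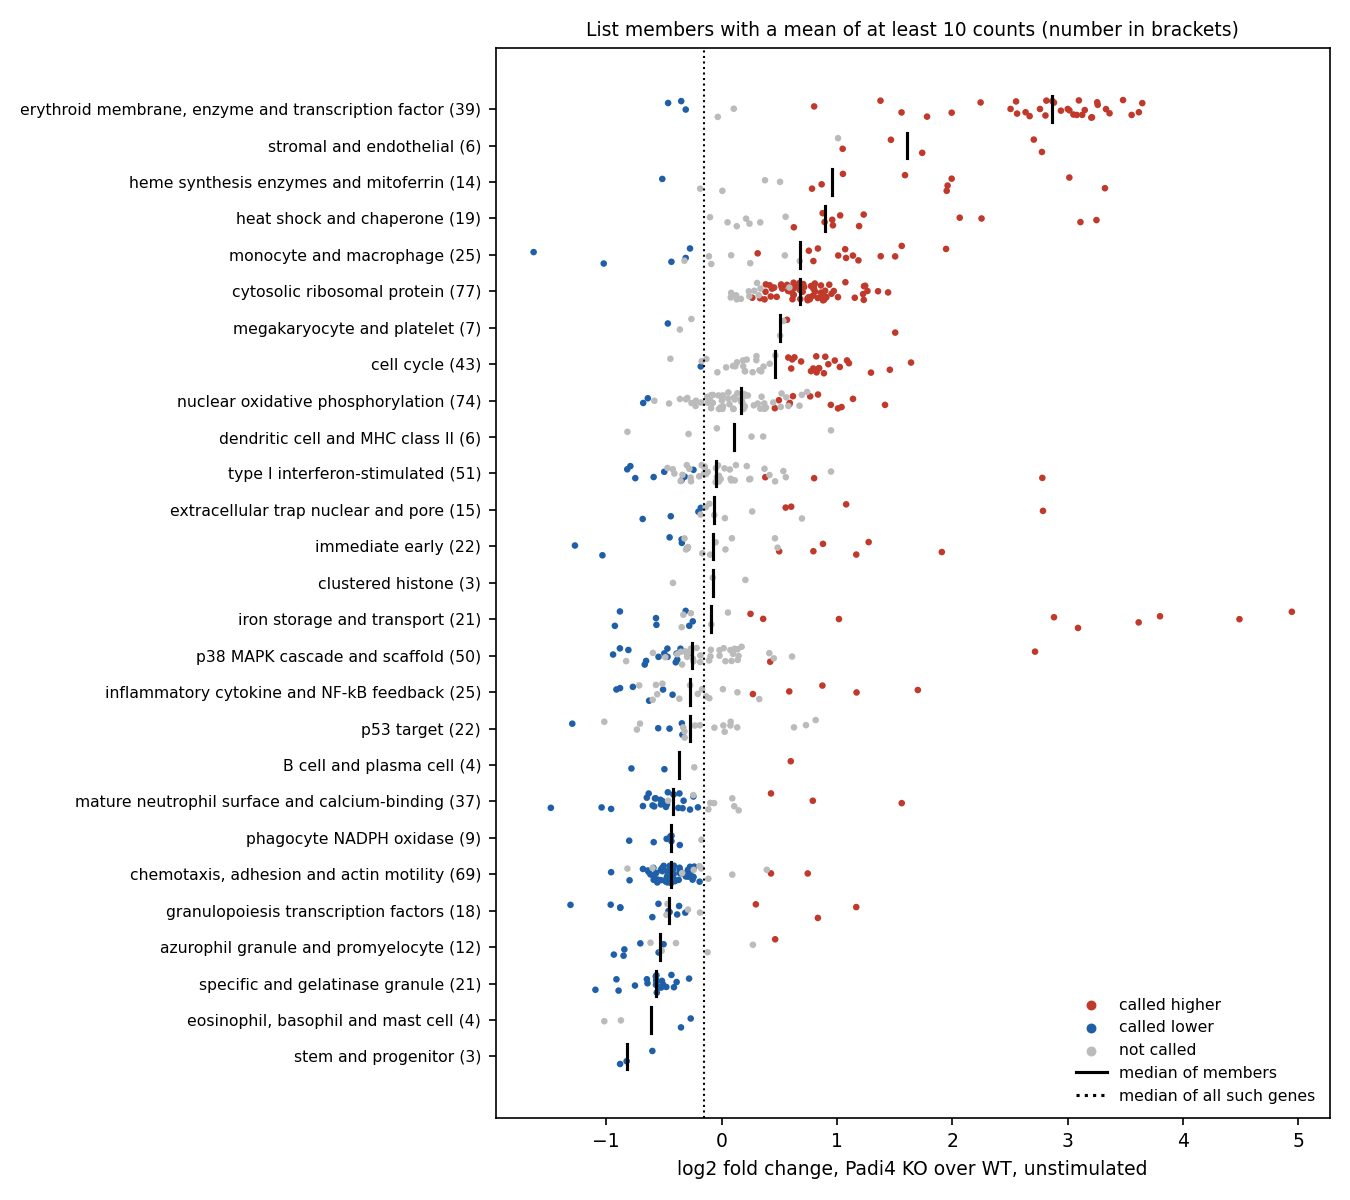
Log2 fold change of Padi4 KO over WT (horizontal) for each list member with a mean of at least 10 counts, 1 row a list, with the number drawn in brackets. Red and blue points were called higher and lower, bars are list medians and the dotted line is the median of all such genes, -0.15; the granule, oxidase and motility lists lie left of it and the ribosomal protein, chaperone, heme and erythroid lists right.

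Genes of protein synthesis and folding were higher in Padi4 KO. Of 82 cytosolic ribosomal protein genes, 65 rose (79.3%, against 9.55% of all genes) and 1 fell (1.22%, against 14.4%), 59 of the rises in all 5 settings, and the median was 0.63. Rps2, a protein of the small subunit, had 237 and 209 CPM in WT and 571 and 573 CPM in KO (log2 fold change 1.36, SE 0.11, edgeR adjusted p = 2.73e-33). Rplp1 and Rpl3, of the large subunit, had log2 fold changes of 1.23 and 1.24. The ribosomal list took 15233 and 13998 CPM of the library total in WT and 28369 and 27975 CPM in KO. Several of these genes have processed copies in the genome, so single values are uncertain.

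Npm1, the nucleolar chaperone nucleophosmin, rose with them, from 63.4 and 46.6 CPM to 260 and 253 CPM, with a log2 fold change of 2.20. Of 23 heat shock and chaperone genes, 14 rose (60.9%, against 9.55% of all genes) and none fell, and the median was 0.96. Hspd1, the mitochondrial chaperonin, had 40.2 and 43.2 CPM in WT and 174 and 175 CPM in KO (log2 fold change 2.07, SE 0.19, edgeR adjusted p = 2.64e-24), and Hspa9, of the same compartment, 2.25, or 2.85 without WT replicate 1. Hspa8, the constitutive cytosolic chaperone, went from 529 and 546 CPM to 1031 and 1056 CPM. Of 78 nuclear genes of oxidative phosphorylation, 13 rose (16.7%, against 9.55% of all genes) and 2 fell (2.56%, against 14.4%), only 3 of the rises held in all 5 settings, and Atp5b, the catalytic subunit of ATP synthase, had a log2 fold change of 0.50.

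Cell cycle genes rose in part. Of 44 tested, 21 rose (47.7%, against 9.55% of all genes) and 1 fell (2.27%, against 14.4%), 15 of the rises in all 5 settings, and the median was 0.44. Mcm2, a subunit of the replicative helicase, had 44.8 and 41.4 CPM in WT and 137 and 134 CPM in KO (log2 fold change 1.64, SE 0.20, edgeR adjusted p = 2.85e-14). Mcm7, of the same helicase, and Rrm1, of ribonucleotide reductase, had 1.30 and 1.09. None of the 40 clustered histone genes tested was called, and only 3 of them had a mean of at least 10 counts.

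Of 32 immediate early genes, 6 rose (18.8%, against 9.55% of all genes) and 6 fell (18.8%, against 14.4%), 4 and 2 of them in all 5 settings. The even split held with TMM factors over the 8 libraries. With the 4 unstimulated libraries alone 8 rose and 3 fell, where 1592 of all 12055 genes rose and 1187 fell. With library size alone 10 rose and 2 fell, where 1901 of all 12254 genes rose and 561 fell. Fos and Jun, which pair to form the AP-1 factor, were higher in KO. Fos had 771 and 813 CPM in WT and 1505 and 1414 CPM in KO (log2 fold change 0.88, SE 0.08, edgeR adjusted p = 3.38e-25), and Jun had 142 and 147 CPM in WT and 346 and 353 CPM in KO, a log2 fold change of 1.28. Junb rose by 0.50 on the same scale, while Dusp6, a phosphatase that switches off ERK, fell from 121 and 107 CPM to 43 and 50.1 CPM.

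Of 38 inflammatory genes, 5 rose (13.2%, against 9.55% of all genes) and 6 fell (15.8%, against 14.4%), 4 and 2 of them in all 5 settings. With library size alone 6 rose and 2 fell, where 1901 of all 12254 genes rose and 561 fell. Il1b, the precursor of interleukin 1 beta, had 83.5 and 81.1 CPM in WT and 286 and 255 CPM in KO (log2 fold change 1.70, SE 0.14, edgeR adjusted p = 1.04e-31). Socs3, a feedback inhibitor of cytokine signalling, and Osm, oncostatin M, had 1.17 and 0.59. Il1rn, the antagonist of the interleukin 1 receptor, and Nfkbia, the inhibitor of NF-kB, changed by -0.77 and -0.63. Tnf had 20 and 24 counts in WT against 19 and 24 in KO at the greater depth, a log2 fold change of -0.91 that was lost in several settings.

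Falls among interferon-stimulated and p53 target genes lay near the share of all genes and rises below it. The direction of their calls moved with the scaling, as that of all genes did. Library size alone called 1901 of all 12254 genes higher and 561 lower. Of 57 interferon-stimulated genes 3 rose (5.26%, against 9.55% of all genes) and 8 fell (14.04%, against 14.4%), with a median of -0.05, but 9 rose and 3 fell with library size alone. Of 39 p53 targets 1 rose (2.56%) and 5 fell (12.8%), but 5 rose and 1 fell with library size alone. The interferon-stimulated genes that fell included Slfn1 and Slfn2, Schlafen genes of leukocytes, with -0.75 and -0.59. Of 56 genes of the p38 MAPK cascade 2 rose (3.57%, against 9.55% of all genes) and 14 fell (25%, against 14.4%), 2 and 2 of them in all 5 settings. With library size alone 7 rose and 3 fell, where 1901 of all 12254 genes rose and 561 fell. The median turned from -0.23 to 0.06, and that of all genes tested from -0.03 to 0.22. Mapk14, the p38 alpha kinase, had 476 and 433 CPM in WT and 386 and 361 CPM in KO (log2 fold change -0.29, SE 0.10, edgeR adjusted p = 0.0195). The log2 fold change was -0.01 with library size alone, and the call was also lost with DESeq2. Spag9, the JNK-interacting scaffold that the study calls JLP, had 46 and 43 counts in WT against 55 and 61 in KO. With a log2 fold change of -0.50 (SE 0.21, edgeR adjusted p = 0.0869) it lay just inside the threshold. The call was lost in several settings, among them RLE factors, DESeq2 and a false discovery rate of 0.05.

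Of 16 genes of the extracellular trap list, which holds nuclear and pore proteins that traps are built from or pass through, 4 rose (25%, against 9.55% of all genes) and 4 fell (25%, against 14.4%). With library size alone 7 rose and 1 fell, where 1901 of all 12254 genes rose and 561 fell. Lmnb1, the B-type lamin of the nuclear envelope, had 238 and 230 CPM in WT and 352 and 359 CPM in KO (log2 fold change 0.60, SE 0.11, edgeR adjusted p = 2.58e-06). Lmna, the A-type lamin, had 2 and 6 counts in WT against 36 and 68 in KO, a log2 fold change of 2.79 that was 2.13 without WT replicate 1 and 3.83 without WT replicate 2. Serpinb1a, an inhibitor of neutrophil elastase, went from 799 and 680 CPM to 451 and 470 CPM.

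Apart from Padi4 and the granule genes, the firmest falls were of genes on few of the lists. Fkbp5, a co-chaperone of steroid receptors, had 374 and 406 CPM in WT and 104 and 95.1 CPM in KO. Its log2 fold change was -1.98 (SE 0.13, edgeR adjusted p = 7.16e-51), and it was the next largest fall after Padi4 among genes with a mean of at least 50 counts. Crispld2, a secreted protein that binds lipopolysaccharide, went from 764 and 798 CPM to 331 and 361 CPM. Acsl1, which activates long-chain fatty acids, Sla, an adaptor that dampens Src-family signalling, and Trp53inp1, a p53-induced stress protein, had log2 fold changes of -1.28, -1.10 and -1.29. Pisd-ps1, a copy of the phosphatidylserine decarboxylase gene, changed by -1.30 and is uncertain because reads may be shared with its parent.

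Since the KO allele was made at one locus, genes beside it were examined. Of 77 tested genes within 5 Mb of Padi4, 18 (23.4%) were called, against 23.9% of all genes tested. Rcc2, a regulator of mitotic chromosomes, lies next to Padi4 and had 61.8 and 70.8 CPM in WT and 155 and 164 CPM in KO (log2 fold change 1.28, SE 0.17, edgeR adjusted p = 2.2e-11). Efhd2, a calcium-binding protein, and Szrd1, of unknown role, fell by 0.43 and 0.43 on the log2 scale, and neither call held with library size alone. With DESeq2 the count within 5 Mb was 6, where 475 genes were higher and 586 lower in all, of 8453 given an adjusted p.

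**Figure D4:**
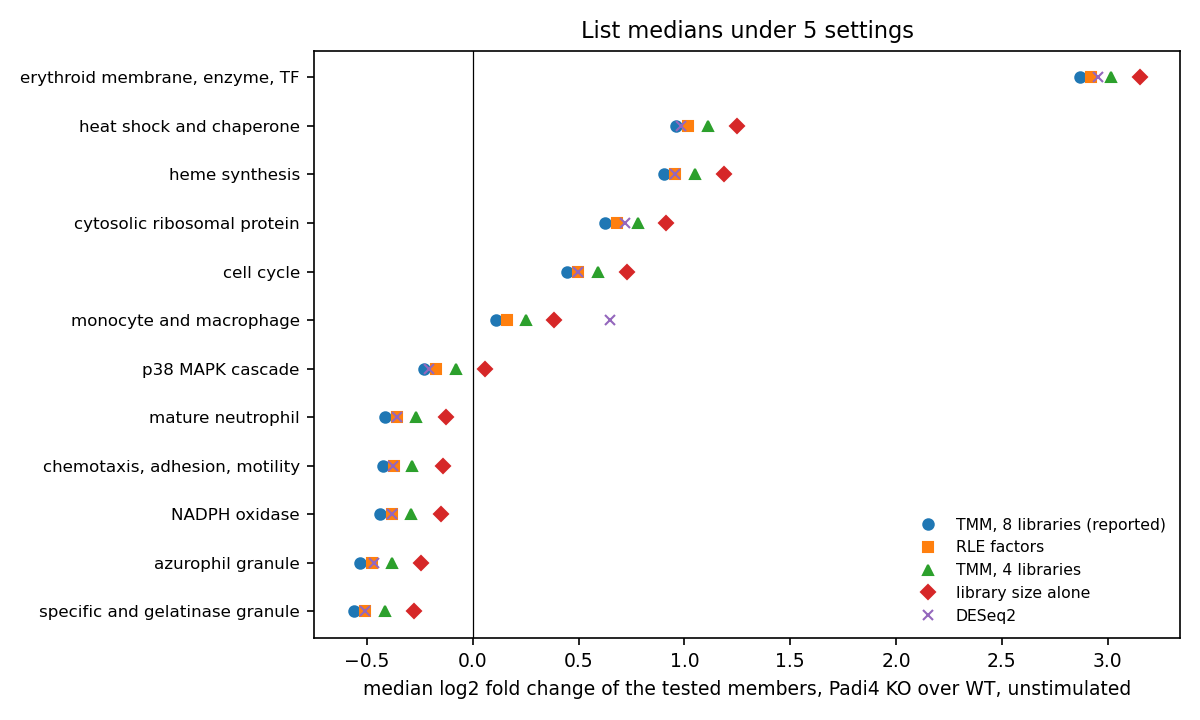
Median log2 fold change of Padi4 KO over WT (horizontal) over the tested members of 12 lists under 5 settings, with DESeq2 taken over members given an adjusted p. The granule, oxidase, motility and mature neutrophil medians lie below 0 in every setting and the erythroid, heme, chaperone, ribosomal and cell cycle medians above 0. The p38 MAPK median crosses 0 with library size alone, where the median of all genes tested was 0.22, against -0.03 in the reported setting.

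The R848 libraries gave a further comparison of Padi4 KO and WT for the same genes. The labels do not say whether these libraries came from other mice or cell preparations than the unstimulated ones. The share of all genes tested with the same direction under both treatments was not counted. Of the 1170 genes higher in unstimulated KO, 1059 (90.5%) had the same direction after R848 and 590 were called there, where 9.46% of all genes were called higher. Of the 1763 lower genes, 1373 (77.9%) kept the direction and 510 were called, where 7.81% of all genes were called lower. Slc4a1 had 2 and 5 counts in WT against 535 and 544 in KO after R848, and 37 of the 47 erythroid genes were called higher there. Of the 82 ribosomal protein genes, 74 were higher after R848, and 17 of the 21 granule genes were lower and 1 was higher. Other lists differed from their unstimulated counts. Of 32 immediate early genes, 21 were called lower after R848 and the others were not called, where 6 rose and 6 fell in unstimulated cells, and of 38 inflammatory genes 1 was higher and 23 were lower, where 5 rose and 6 fell in unstimulated cells. Of 57 interferon-stimulated genes, 31 were lower and the others were not called, where 3 rose and 8 fell. Of 23 stromal genes, 2 were higher and 1 was lower, where 6 rose, and the stromal list took 218 and 161 CPM of the library total in WT and 199 and 186 CPM in KO after R848, values that overlap. Whether a list as a whole differed between the treatments was not tested.

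The genotype difference itself differed between the treatments in 577 genes (4.71%) at an adjusted p below 0.1 in the same edgeR fit, and 125 did with DESeq2 and 332 without WT replicate 1. Among genes called in unstimulated cells, the smallest p were those of Fos and Il1b. Fos was higher in unstimulated KO, but after R848 it had 149 and 142 CPM in WT and 16 and 14.7 CPM in KO, so that the log2 fold change turned from 0.88 to -3.23 (difference -4.11, SE 0.24, edgeR adjusted p = 6.47e-62). Il1b had 5686 and 4821 CPM in WT and 3155 and 2855 CPM in KO after R848, and turned from 1.70 to -0.80. Tlr2, Jun and Osm turned in the same way. If the labelled time of 0 h holds, this difference also includes the time in culture.

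**Figure D5:**
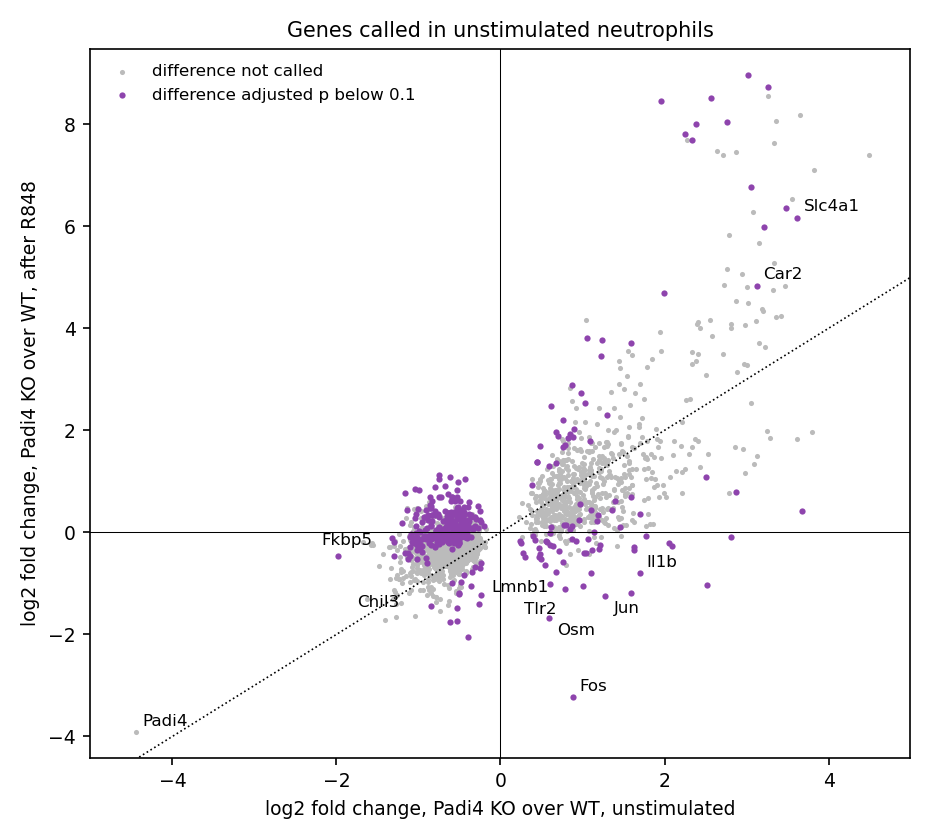
Log2 fold change of Padi4 KO over WT after R848 (vertical) against that in unstimulated neutrophils (horizontal), for 2353 genes called in unstimulated cells with a mean of at least 10 counts in both treatments; the dotted line marks equal values. Purple points, 397 genes, differed between treatments at an adjusted p below 0.1, among them Fos, Jun, Il1b, Osm, Tlr2 and Lmnb1, which lie above 0 on the horizontal and below 0 on the vertical axis; fitted values above 6 rest on WT libraries with few counts.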

How the data were processed

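Paired-end reads of neutrophil RNA, from libraries made with a kit that does not mark strand, were checked with FastQC 0.11.7, trimmed with cutadapt 1.16, filtered on base quality with the FASTX toolkit, mapped to mm10 with STAR 2.5.3a and counted on genes with HTSeq 0.6.1p1, as the submitters' processing notes and the study's methods give them. The authors deposited raw counts for 24421 gene symbols, not normalized. Which annotation and strand option HTSeq was given is not given in the sources used here, so overlapping and antisense genes cannot be told apart. Summary lines were left out. Reads on genes were 87.0% to 88.7% of those in the table for the unstimulated libraries.

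Genes were kept where 2 or more of the 8 libraries had a count of 1 or more, and were tested in R 4.3.3 with edgeR 4.0.16 (TMM factors, 1 mean per group, robust quasi-likelihood F test over the 8 libraries, contrast Padi4 KO minus WT, unstimulated), with Benjamini-Hochberg adjustment and a false discovery rate of 0.1. Standard errors were derived from the log2 fold change and the F statistic (its size over the root of F). The study's methods name DESeq2; here DESeq2 1.42.0 was an alternative. Fitted fold changes of genes with few WT counts depend on the prior count. Sums over lists are CPM of the library total, and the same sums divided by the TMM factors were added after the data were seen. The shared biological coefficient of variation was 4.68%. Libraries of a group differed by slightly more than counting noise (chi-square over degrees of freedom 1.13 in WT and 1.05 in KO), and the R848 libraries of the same fit by more, 1.67 in WT and 1.162 in KO. They were counted as 2 samples per group as labelled, and may be technical duplicates, in which case the p-values do not cover differences between mice. The replicate numbers of the groups did not pair.

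The comparison and the gene lists were chosen with earlier results of these data known, so list counts are descriptions set beside those of all genes tested. Named were the PAD genes and the 10 rises and 10 falls with the smallest p and a mean of at least 10 counts. So were the 5 largest rises and falls with a mean of at least 50 counts, and members of each list with the smallest p. Spag9, Mapk14 and the called genes nearest to Padi4 were also named. The last were the 5 genes with the smallest p for a difference between treatments among genes called in unstimulated cells. Gata1, Klf1, Alas2 and the genes of the other observations are not among these and were chosen once their values were known. Promoter positions are those of RefSeq on GRCm38.p6 and gene positions those of GENCODE on GRCm38, to which 23204 of the symbols were matched directly and 1096 through a single synonym. On simulated counts with 200 changed genes of 11901, edgeR recovered 173, and 8.47% of its calls were false. In the data 2933 of 12254 genes were called, far more than were changed in the simulation. The simulation therefore cannot give the share of false calls in these data. Results for some single genes that the rule would name are not reported here.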

Additional observations from a re-analysis of the deposited data

Results flagged for a closer look

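Of 96 genes named with values, 41 had a genotype difference that differed between R848 and unstimulated neutrophils at an adjusted p below 0.1 in the test of that difference in edgeR. Most were named for a small p or a large change in unstimulated cells, which enters the difference, and 5 for the test itself, so the share is not set against that of all genes. Among all genes called in unstimulated cells, the difference was called in 9.49% of those higher and 17.3% of those lower. Values below are the log2 fold change of Padi4 KO over WT after R848 minus that in unstimulated cells.

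The difference was negative where KO was higher unstimulated and lower, or less raised, after R848. It was -4.11 for Fos, -2.52 for Jun, -2.51 for Il1b, -2.27 for Osm, -1.90 for Tlr2, -1.61 for Lmnb1, -1.02 for Junb, -0.77 for Cebpb and -0.77 for Plac8, which changed sign. It was -0.95 for Socs3 and -0.72 for Hspa8, which did not. In Hdc and Mpo, lower in KO under both treatments, it was -1.13 and -0.60.

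The difference was positive where the fall in KO was smaller after R848 or had turned. It was 1.52 for Fkbp5, 1.161 for Klf13, 1.11 for Trp53inp1, 0.85 for Pisd-ps1, 0.82 for Sla and 0.76 for Crispld2. Of the neutrophil lists it was 0.57 for Cxcr4, 0.52 for Cyba, 0.51 for Ncf1, 0.37 for Itgb2, 0.30 for Coro1a, 0.29 for Retnlg and 0.27 for Tmsb4x. It was 0.50 for Ccl6, 0.43 for Nfkbia, 1.05 for Sgk1 and 0.97 for Tsc22d3. For Ppox it was 1.502, a fall that became a rise.

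Rises were larger after R848 in the erythroid genes Car2, Slc4a1, Fech, Sptb and Aqp1, by 1.71, 2.55, 2.69, 2.78 and 2.87, and in Fn1, Mcm7 and Rrm1, by 0.92, 1.00 and 0.70. Gata1 and Klf1 had differences of 5.28 and 5.47, but their WT libraries were at 0 after R848, so these fitted values depend on the prior count and are no measure of size. Where the labelled 0 h holds, each of these differences also includes time in culture.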

How the results depend on the processing

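The fall of Padi4 passed the test under every alternative run. Library size alone gave 1901 genes higher and 561 lower in KO, of which 1239 and 59 by more than 2-fold, and the 4 unstimulated libraries alone gave 115 genes more than 2-fold lower. Thinning every library to the smallest total gave 1045 genes lower, 152 of them by more than 2-fold, 11 near Padi4 and 374 that differed between treatments. DESeq2 gave 475 higher and 586 lower, 343 and 62 by more than 2-fold, 6 near Padi4, 125 that differed between treatments and 485 called the same way after R848, against 1100 with edgeR. DESeq2 gave an adjusted p to 8453 genes. Leaving out 1 library at a time gave 778 to 1004 genes higher and 1166 to 1412 lower, 11 to 15 near Padi4 and 332 to 406 that differed between treatments, each lowest without WT replicate 1. No gene called in the reported fit was called in the opposite direction under any alternative. Hdc turned to 0.0198 with library size alone. Dividing list sums by the TMM factors, an alternative chosen after seeing the data, turned the log2 ratio of the monocyte and macrophage sum from 0.24 to -0.0423, and the other 6 sums given kept their direction. Of 95 genes named besides Padi4, 81 kept their direction and side of the threshold in every alternative, and the other 14 lost the call in at least 1. The cause was not tested. With the replicate number as a block, 1123 genes were higher and 1724 lower. The numbers did not pair the samples: deviations of same-numbered libraries from their group means correlated at -0.02 to 0.02, with 2 numbers per group. Depth limits the low genes, of which 5166 had a mean under 10 counts in the 4 unstimulated libraries.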

Other observations

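A few genes outside the lists were named after their values were seen, and their values are given without a reading. Tsc22d3, the leucine zipper protein GILZ, had 370 and 406 CPM in WT and 312 and 286 CPM in Padi4 KO (log2 fold change -0.38, SE 0.11, edgeR adjusted p = 0.003). Sgk1, a serum-regulated kinase, went from 98.9 and 111 CPM to 64.4 and 54.4 CPM, with a log2 fold change of -0.84, and Per1, a clock gene, from 150 and 178 CPM to 117 and 109 CPM, with -0.54. In each the KO libraries lay below the WT libraries, and groups do not overlap in 55.4% of all genes tested. The calls of Tsc22d3 and Per1 were lost with library size alone and with DESeq2. The metallothionein genes, whose products bind zinc and copper, went the other way at low counts. Mt1 had 3 and 2 counts in WT against 17 and 33 in KO, and Mt2 had 1 and 2 in WT against 11 and 14 in KO. Their log2 fold changes were 2.39 and 2.11, and the Mt2 value was 2.73 without WT replicate 2 and its call was lost with DESeq2.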
